A study of Mus musculus with 16 samples.

Results

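The 7 genes described here carry out peptide presentation by MHC class I: Nlrc5, the transactivator of the class I genes, the heavy chains H2-K1 and H2-D1, their light chain B2m, the peptide transporter subunits Tap1 and Tap2, and the loading chaperone tapasin (Tapbp). They were picked by name, with earlier results of these data known, and no measured value enters the rule. All 7 were among the 16858 genes found in each of the 3 deposited tables, and all 7 passed the filter on low values in each comparison. The values come from RNA sequencing of 16 tumors grown from 4T1, a mouse mammary carcinoma line of BALB/c origin, in 6-week-old female wild-type BALB/c mice. Subcutaneous tumors, as the labels name those grown in the mammary fat pad, came from 400000 injected cells, and tumors under the capsule of the left liver lobe came from 200000, so the site and the number of cells cannot be told apart. The subcutaneous groups were pre_SC (untreated) and post_SC (paclitaxel), with 3 libraries each, and the liver groups were pre_Liver (untreated) and post_Liver (paclitaxel), with 5 each. Growth is given as 15 days for all 4 groups. Paclitaxel, which stabilises microtubules and blocks mitosis, was injected intraperitoneally at 10 mg/kg, 5 times a week for 2 weeks, and control animals received PBS. Tumor tissue was digested to cells before poly(A) RNA was prepared. The labels do not state whether each library is a mouse of its own or whether the untreated tumors were as old as the treated ones, so p-values measure the spread between libraries and a response may hold a difference in age. Depth behind each value is unknown.

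MHC class I molecules show peptides cut from proteins of the cell's interior to CD8 T cells. The proteasome cuts the peptides, TAP1 and TAP2 pump them into the endoplasmic reticulum, and tapasin holds the empty heavy chain with beta-2-microglobulin beside the transporter until a peptide fits. Interferon gamma raises the whole set through factors that include IRF1, and NLRC5 joins the RFX, NF-Y and CREB/ATF proteins on the SXY module of the class I promoters. Loss of these genes is a known way for carcinomas to escape T cells.

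The promoters of 5 of the 7 genes were in the RefSeq table used here (GRCm38.p6), and those of H2-K1 and B2m are shown because they hold this layout in bases outside any annotated UTR. Each run is read 5′ to 3′ on the gene's strand and ends just before the transcript start. Capitals mark, on either strand, CCAAT (bound by NF-Y), TGACG (the core of the X2 box), AANNGAAA (an interferon regulatory factor consensus) and the kappa B consensus (GGG, any 5 bases, CC). Matches to kappa B can overlap each other.
H2-K1, chr17:34000348-34000597, minus strand: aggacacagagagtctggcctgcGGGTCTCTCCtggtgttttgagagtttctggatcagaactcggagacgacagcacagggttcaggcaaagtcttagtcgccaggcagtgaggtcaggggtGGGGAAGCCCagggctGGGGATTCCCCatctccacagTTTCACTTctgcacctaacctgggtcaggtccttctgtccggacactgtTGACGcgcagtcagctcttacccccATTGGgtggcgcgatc
B2m, chr2:122147437-122147685, plus strand: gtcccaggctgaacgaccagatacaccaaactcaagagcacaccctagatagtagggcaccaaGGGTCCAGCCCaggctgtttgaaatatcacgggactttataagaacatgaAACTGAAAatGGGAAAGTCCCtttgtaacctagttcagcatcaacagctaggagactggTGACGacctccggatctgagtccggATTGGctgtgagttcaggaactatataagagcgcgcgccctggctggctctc
In both promoters kappa B and AANNGAAA lie upstream of TGACG, which lies upstream of CCAAT (read as ATTGG). H2-K1, H2-D1 and B2m each held all 4 motifs in the 250 bases before the start, as did 154 of 32851 promoters of the table (0.469%). In this window Tap1 lacked AANNGAAA, and Tapbp held CCAAT alone. The start used is that of RefSeq. The windows of H2-D1 (from 35262844) and Tapbp (from 33919228) lie inside the genes, which GENCODE starts at 35262730 and 33915899. Of the 250 bases, 250 in H2-D1, 246 in Tap1 and 244 in Tapbp are annotated as UTR of some gene. Singly, CCAAT stood in 33.8%, TGACG in 17.8%, AANNGAAA in 21.3% and kappa B in 45.8% of promoters. The H2-K1 and H2-D1 promoters were identical at 166 of 190 aligned bases (87.4%). The motifs were chosen after the sequences were seen, and a match is a run of letters, not a measured binding site.

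Of the 7 genes, 5 lie in the H2 region of chromosome 17 (GRCm38, GENCODE): Tapbp at 33915899 to 33929292, H2-K1 at 33996017 to 34000347, Tap1 at 34187553 to 34197225, Tap2 at 34203527 to 34216321 and H2-D1 at 35262730 to 35267499. B2m lies on chromosome 2 at 122147686 to 122153083, and Nlrc5 on chromosome 8 at 94434356 to 94527272. Heavy chains are the most polymorphic members, and GRCm38 carries the b haplotype of C57BL/6 while BALB/c carries the d haplotype. How this shaped the H2-K1 and H2-D1 values was not tested. Of the 50-base runs in its main transcript, H2-D1 shared 14.3% with other genes and H2-K1 8.79%, among them H2-Q1, H2-Q6, H2-Q7 and each other, so reads of these genes may have been exchanged. The share was 0 for Nlrc5 and B2m and at most 2.00% for Tap1, Tap2 and Tapbp. Exons of genes on the opposite strand overlap 24.9% of the exon bases of Tapbp (Gm19412) and 3.87% of those of Tap1 (Psmb9). In Tap2 they overlap 14.1% (Gm15821) and 4.36% (Gm20496), and in Nlrc5 0.918% (9330175E14Rik). On the same strand, exons of Zbtb22 overlap 4.11% of the exon bases of Tapbp. Whether the authors counted by strand is not given in the sources used here.

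The tumors were bulk tissue. The summed level of 10 hepatocyte markers was 32305 to 135222 TPM (a level per transcript length, recomputed over the genes that all tables hold) in untreated liver tumors, 3061 to 77647 in treated liver tumors and at most 18.2 in subcutaneous tumors, where Serpina1c and Cyp3a11 were at 0 in at least 1 library of either group. The 8 carcinoma epithelium markers summed to 4618 to 5361 TPM in the 6 subcutaneous tumors, 580 to 3029 in untreated and 1113 to 3777 in treated liver tumors, with none at 0. In the deposited table of untreated tumors each gene carries a constant that pre_Liver replicates 4 and 5 have with the opposite sign, so these 2 libraries form a set apart. They also had the highest hepatocyte sums (130364 and 135222 TPM) and the lowest carcinoma sums (580 and 669). In bulk samples, fewer cells of a type and less RNA per cell cannot be told apart.

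On a per-length scale, B2m was the most abundant of the 7 transcripts, with a median over the 16 libraries of 6006.7 TPM, followed by H2-K1 (3239) and H2-D1 (2653). The loading genes stood an order lower, Tapbp at 323, Tap1 at 222 and Tap2 at 107, and Nlrc5 was lowest at 51.8. The spread was widest for the lowest gene, Nlrc5, but did not follow abundance throughout, as Tap2 varied less than either heavy chain. Nlrc5 varied 8.75-fold between its lowest and highest library and Tap1 8.06-fold, against 4.21-fold for H2-D1, 3.67-fold for H2-K1, 3.53-fold for Tapbp, 3.08-fold for Tap2 and 2.20-fold for B2m. For each of the 7 genes the untreated subcutaneous tumors had the highest group mean. The lowest mean was that of untreated liver tumors, except for Tap2, which was lowest in treated subcutaneous tumors.

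**Figure D1:**
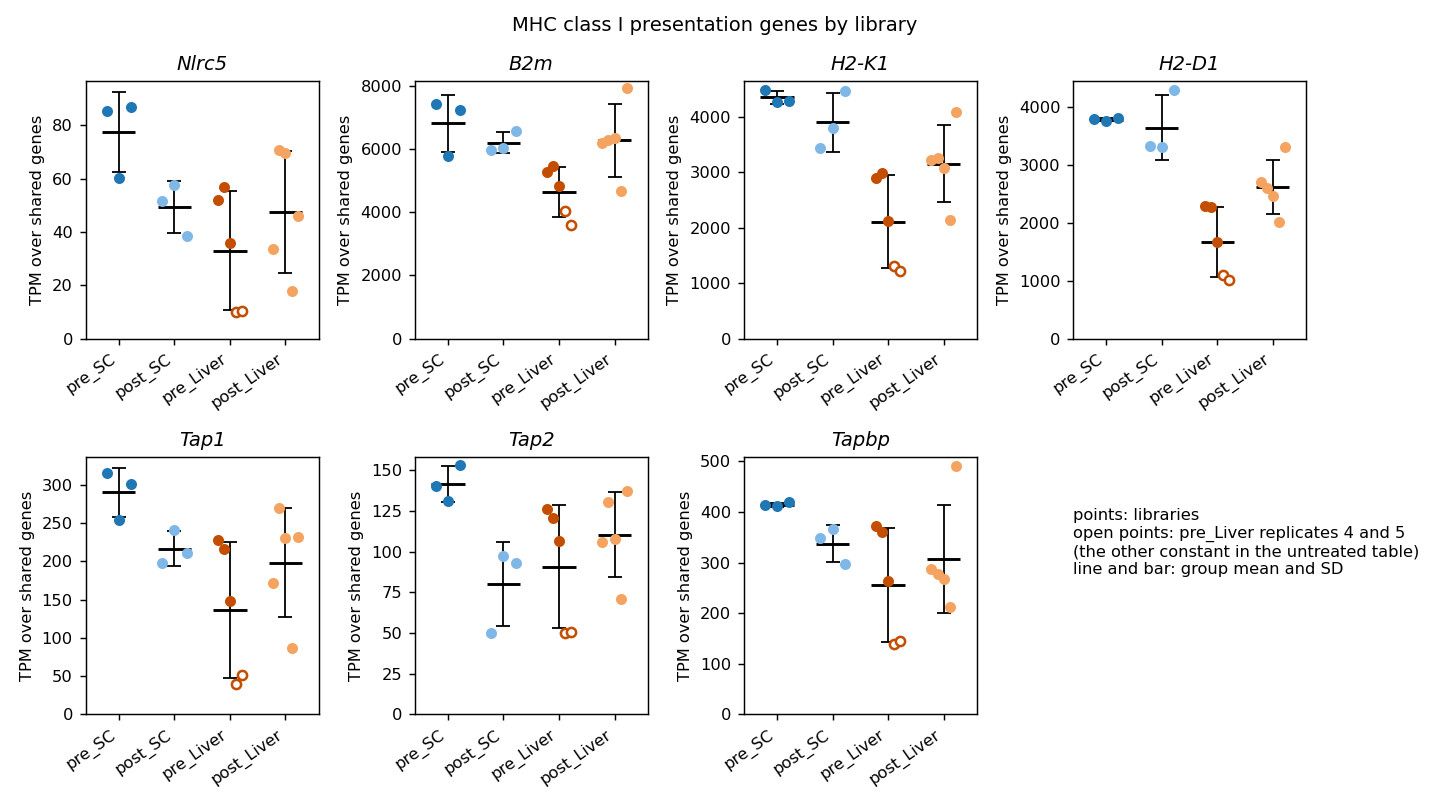
Level of each gene in TPM over the shared genes (axes from 0) in every library of the 4 groups; lines and bars are the group mean and SD, and open points are pre_Liver replicates 4 and 5. All 3 pre_SC points lie above all 5 pre_Liver points in each panel, and the open points are lowest among the untreated liver tumors.

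Nlrc5 was at 85.4, 60.2 and 86.8 TPM in pre_SC, at 51.7, 57.4 and 38.5 in post_SC, at 51.8, 56.9, 35.7, 9.92 and 10.5 in pre_Liver and at 33.6, 70.6, 69.7, 17.9 and 45.9 in post_Liver, in order of replicate number. The highest untreated liver tumor was below the lowest untreated subcutaneous tumor, and the treated liver tumors spanned most of the range. The group means ran pre_SC (77.4 ± 15.0), post_SC (49.2 ± 9.69), post_Liver (47.5 ± 22.9) and pre_Liver (33.0 ± 22.2, SD), and the last 3 overlapped each other. Means of Tap1 had the same order, from 290.0 ± 32.4 TPM in pre_SC through 217 ± 22.3 in post_SC and 198 ± 71.4 in post_Liver to 137 ± 89.0 in pre_Liver. B2m means ran from 6825 ± 900.0 TPM in pre_SC through 6287 ± 1157 in post_Liver and 6199 ± 334 in post_SC to 4642 ± 800.1 in pre_Liver, and the first 3 groups overlapped. The subcutaneous and liver tables were made separately, which limits any comparison of treated tumors between sites. Treated values are therefore set side by side with no test.

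Before treatment, all 7 genes were lower in the liver tumors than in the subcutaneous ones, with no overlap between the 5 and 3 libraries. Over all genes tested, 35.2% were lower without overlap. H2-K1 was at 4487, 4278 and 4294 TPM in pre_SC and at 2902, 2990.4, 2123, 1310.1 and 1223 in pre_Liver. H2-D1 was at 3784, 3760.1 and 3805 in pre_SC and at 2283, 2279, 1666, 1107 and 1018 in pre_Liver. The 3 subcutaneous values of either heavy chain lay close together, while the liver values fell into replicates 1 and 2, then 3, then 4 and 5. Fitted on the untreated table after its constants were removed, H2-D1 had a log2 difference of −1.28 ± 0.34 (SE, with a limma adjusted p = 0.0195) and H2-K1 by −1.16 ± 0.37 (limma adjusted p = 0.0327). No other member was called, so that 2 of 7 passed, where 48.8% of 13725 genes were called and 33.5% were called lower. An unadjusted p under 0.05 was found for 4 of the 7 members and for 60.6% of all genes. The call of H2-K1 ended in 9 of its alternatives, including each fit without a pre_SC library (limma adjusted p = 0.0868 to 0.105), and that of H2-D1 ended in those same 3 fits (0.0618 to 0.0727). Their ranges over the alternatives were 0.00531 to 0.105 for H2-K1 and 0.00223 to 0.0727 for H2-D1.

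The other 5 members missed the threshold. Nlrc5 differed by −1.54 ± 0.61 on the log2 scale (limma adjusted p = 0.0615) and Tap1 by −1.42 ± 0.60 (limma adjusted p = 0.0750), larger differences than those of the heavy chains but with wider errors. Tapbp was at 413, 412 and 419 TPM in pre_SC and at 372, 359, 263, 139 and 145 in pre_Liver, a difference of −0.83 ± 0.37. Tap2 was at 141, 131 and 153 TPM in pre_SC and at 126, 121, 107, 49.8 and 50.6 in pre_Liver (−0.77 ± 0.36), and B2m differed by −0.58 ± 0.28. The adjusted p of Tapbp, Tap2 and B2m was 0.0842, 0.0978 and 0.103 by limma. The median of all genes was itself −0.52. With median-of-ratios scaling this median was −0.01, and the 6704 called genes, 2106 higher and 4598 lower, became 3218 genes called higher and 2490 genes called lower. On that scaling Nlrc5 stood at −1.01, Tap1 at −0.88, H2-D1 at −0.73, H2-K1 at −0.61, Tapbp at −0.29, Tap2 at −0.22 and B2m at −0.03.

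The 5 untreated liver tumors also differed among themselves, most for Nlrc5 and Tap1. The mean of replicates 1 to 3 was 4.71 times that of replicates 4 and 5 for Nlrc5 and 4.38 times for Tap1. For Tap2, Tapbp, H2-K1, H2-D1 and B2m it was 2.35, 2.33, 2.11, 1.95 and 1.36 times. Hepatocyte sums in these libraries were 57960.1, 32305 and 86174 against 130364 and 135222 TPM, and their part in the differences was not tested. Between replicates 1 to 3 and the 3 subcutaneous tumors alone, which share a constant, H2-D1 differed by −0.89 (limma adjusted p = 0.0219), H2-K1 by −0.73 (limma adjusted p = 0.0447) and Nlrc5 by −0.69 (limma adjusted p = 0.0537). Tap1, B2m, Tapbp and Tap2 stood at −0.58, −0.40, −0.35 and −0.28 there. Over the alternatives other than leaving out 1 library, this fit among them, 3781 to 7851 genes were called. The median of all genes lay between −0.57 and −0.01 in them. Replicates 4 and 5 have no subcutaneous partner and give no such value.

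Among related genes, counts are read beside all genes, of which 33.5% were called lower and 15.3% higher in liver tumors, with a median of −0.52. Of 12 other H2 class I genes tested (16 listed), 7 were lower and 1 was higher, with a median of −1.19. H2-Q2, H2-Q4 and H2-Q6 differed by −1.60 ± 0.46, −1.40 ± 0.39 and −1.40 ± 0.40 (limma adjusted p = 0.0239, 0.0219 and 0.0248). H2-Q10, which encodes a soluble class I molecule secreted by the liver, was higher by 2.33 ± 0.31 (limma adjusted p = 0.000929). These 4 genes each share 50-base runs with H2-D1 and H2-K1, and H2-Q10 stood at 128 to 154 TPM in pre_SC, where hepatocyte markers summed to at most 18.2. The class I-like genes outside the region went the other way, with 3 of 4 tested higher: Cd1d1, which presents lipids, by 3.35 ± 0.43, Fcgrt, the neonatal Fc receptor, by 1.53 ± 0.33, and Hfe, which controls iron uptake, by 0.56 ± 0.15. In the next 3 lists, the shares called lower lay near that of all genes. Of 12 genes of the interferon gamma axis 3 were lower, the receptor-bound kinase Jak2 (−2.06 ± 0.52), Gbp2 (−1.54 ± 0.55) and the receptor chain Ifngr2 (−0.81 ± 0.29). Of 8 genes of the SXY enhanceosome 3 were lower, Atf1 (−0.58 ± 0.18), Nfya (−0.89 ± 0.32) and Creb1 (−0.88 ± 0.32). Of 6 loading and folding genes 2 were lower, the glucosyltransferase Uggt1 (−0.80 ± 0.22) and the peptide editor Tapbpl (−0.73 ± 0.25). The calls of H2-Q10, Cd1d1 and Fcgrt held in all 18 alternatives. Those of the other genes named here ended without pre_SC replicate 1 or 3 and, but for Jak2 and Uggt1, without pre_SC replicate 2. The calls of Gbp2, Ifngr2, Nfya, Creb1, Atf1 and Tapbpl also ended without any 1 of pre_Liver replicates 3, 4 and 5, as did that of H2-Q6 without pre_Liver replicate 3 and those of Atf1 and Creb1 without pre_Liver replicate 1. In these fits the limma adjusted p was 0.0539 to 0.150, within a range of 0.00223 to 0.836 over all alternatives of these genes. With median-of-ratios scaling these 6 and Uggt1 were not called. None of 5 immunoproteasome genes, 3 constitutive proteasome genes or 6 genes of class I readers was called by limma, and none had an unadjusted p under 0.05.

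In subcutaneous tumors, none of the 7 members was called after paclitaxel, by limma at adjusted p under 0.05 or in any alternative run. All 7 differences were below 0, as were 52.7% of all genes, and 4 of the 7 had an unadjusted p under 0.05, as had 27.4% of all genes. Of 13364 genes 6.94% were called, and 4.27% were called lower. Nlrc5 was at 84.9, 59.9 and 86.3 TPM as deposited in pre_SC and at 51.4, 57.1 and 38.3 in post_SC, with no overlap (log2 difference −0.64 ± 0.20, SE; limma adjusted p = 0.0937). The transporter subunits did not overlap either. Tap1 was at 314, 252 and 299 TPM in pre_SC and at 196, 240 and 210 in post_SC (−0.42 ± 0.13; limma adjusted p = 0.0858). Tap2 was at 139.8, 131 and 152 TPM in pre_SC and at 49.9, 96.4 and 92.7 in post_SC (−0.87 ± 0.24; limma adjusted p = 0.0725), and post_SC replicate 1 was the low one. Tapbp was at 411, 409 and 416 TPM in pre_SC and at 347, 365 and 296 in post_SC (−0.30 ± 0.11; limma adjusted p = 0.124). Over all genes, 18.7% were lower in post_SC with no overlap.

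The chains of the class I molecule itself overlapped between treated and untreated subcutaneous tumors. B2m was at 7398, 5762 and 7200.2 TPM in pre_SC and at 5948, 5992 and 6546 in post_SC, a difference of −0.13 with a 95% interval of −0.41 to 0.15. H2-K1 was at 4462, 4256 and 4269 TPM in pre_SC and at 3412, 3781 and 4446 in post_SC, a difference of −0.17 (−0.44 to 0.10). H2-D1 was at 3762, 3740.4 and 3783 TPM in pre_SC and at 3304, 3289 and 4259 in post_SC, a difference of −0.07 (−0.35 to 0.21). Post_SC replicate 3 was highest among the treated tumors for both heavy chains and for B2m, and lowest for Nlrc5 and Tapbp. Whether the loading genes and the chains differ from each other in response was not tested.

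**Figure D2:**
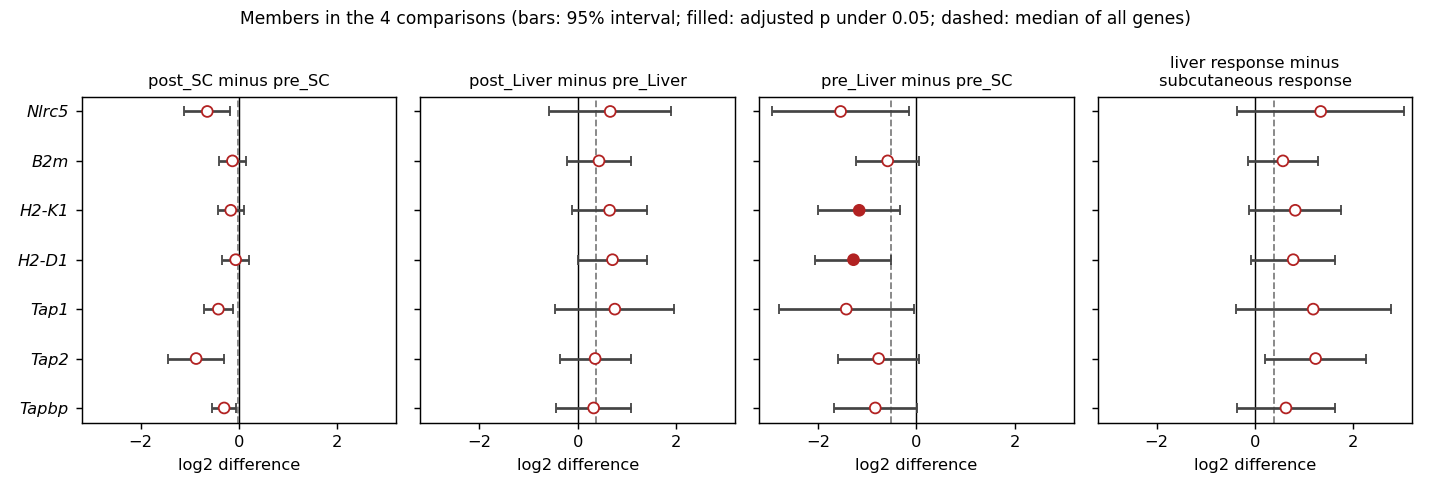
Log2 difference of each gene in the 4 comparisons, with the 95% interval from limma; filled points passed an adjusted p of 0.05, and the dashed line is the median of all genes tested. H2-K1 and H2-D1 are filled in the site comparison (−1.16 and −1.28), and no point is filled in the other 3 panels.

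Of 12 listed genes of the interferon gamma axis, 3 fell in the treated subcutaneous tumors and none rose, where 4.27% of all genes were called lower. The list median was −0.80 beside −0.03 for all genes, and the receptor chain Ifngr1 stood above 0, at 0.37 ± 0.12 (limma adjusted p = 0.0925). Irf1, which interferon gamma induces and which binds class I promoters, fell from 314 ± 27.2 to 179.7 ± 22.1 TPM (means ± SD of 3 libraries), a log2 change of −0.80 ± 0.13 (SE; limma adjusted p = 0.0177). Irf8, a factor of dendritic and other myeloid cells, fell from 61.1 ± 4.67 to 30.7 ± 3.67 TPM (−0.97 ± 0.13; limma adjusted p = 0.0153). Ciita, the counterpart of Nlrc5 that acts on the class II genes, fell from 37.1 ± 8.10 to 8.52 ± 4.00 TPM (−2.08 ± 0.35; limma adjusted p = 0.0219). Dendritic cell markers summed to 45.9 to 61.3 TPM in pre_SC and 19.7 to 27.4 in post_SC, and neutrophil markers to 82.9 to 263 and 71.4 to 80.3. Endothelial markers were higher after treatment, at 77.02 to 115 TPM in pre_SC and 189 to 232 in post_SC. Macrophage markers overlapped, at 1580.5 to 1915 and 1907 to 2465 TPM, as did leukocyte markers, at 517 to 637 and 375 to 583. T and NK cell markers overlapped too, at 53.5 to 78.4 TPM in pre_SC and 61.9 to 153 in post_SC. The part of these cells in the falls was not tested. With 1 library left out, each of the 3 calls ended without pre_SC replicate 1 (limma adjusted p = 0.0635 to 0.0811) and without pre_SC replicate 3 (0.0717 to 0.0909), and that of Ciita also without pre_SC replicate 2 (0.0599). Over all alternatives their adjusted p lay between 0.0125 and 0.0909.

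Some genes of peptide supply and folding fell as well, where 4.27% of all genes were called lower and 27.4% had an unadjusted p under 0.05. Calreticulin (Calr), a chaperone of the loading complex, fell from 1154 ± 68.6 to 631 ± 106 TPM (means ± SD of 3 libraries), by −0.88 ± 0.13 in log2 units (limma adjusted p = 0.0169), as 1 of 6 loading and folding genes. Of 5 immunoproteasome genes 2 fell, the catalytic subunit Psmb9 from 393 ± 35.4 to 256 ± 31.2 TPM (−0.62 ± 0.13; limma adjusted p = 0.0334) and the activator subunit Psme1 from 736 ± 20.9 to 543 ± 28.7 TPM (−0.44 ± 0.09; limma adjusted p = 0.0338). All 6 loading and folding genes were below 0, with a median of −0.61, and 5 had an unadjusted p under 0.05. The 5 immunoproteasome genes were also all below 0, with a median of −0.44, and 4 had an unadjusted p under 0.05. Psmb8, named here after its values were seen, was not among these 4 and stood at −0.22 ± 0.11. The 3 listed constitutive proteasome genes Psmb5, Psmb6 and Psmb7 stood at −0.22 ± 0.16, 0.08 ± 0.12 and −0.05 ± 0.10. None of the 3 was called or had an unadjusted p under 0.05. Psmb9 and Tap1 share 212 exon bases on opposite strands. The calls of Calr, Psmb9 and Psme1 ended without any 1 of the 3 pre_SC libraries (limma adjusted p = 0.0604 to 0.128), and those of Psmb9 and Psme1 also without post_SC replicate 1 or 3 (0.0520 to 0.0745). Over all alternatives their adjusted p lay between 0.0165 and 0.128. Of 12 other H2 class I genes tested none was called by limma and 3 had an unadjusted p under 0.05, led by H2-T23, the ligand of NKG2A receptors, at −0.66 ± 0.19 (limma adjusted p = 0.0816). None of 4 class I-like genes, 8 enhanceosome genes or 6 reader genes was called by limma, and 1 of each had an unadjusted p under 0.05. Of these, Cd1d1 and Klrd1 stood above 0, at 0.46 ± 0.18 and 0.99 ± 0.34, and Nfya below it, at −0.84 ± 0.36.

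**Figure D3:**
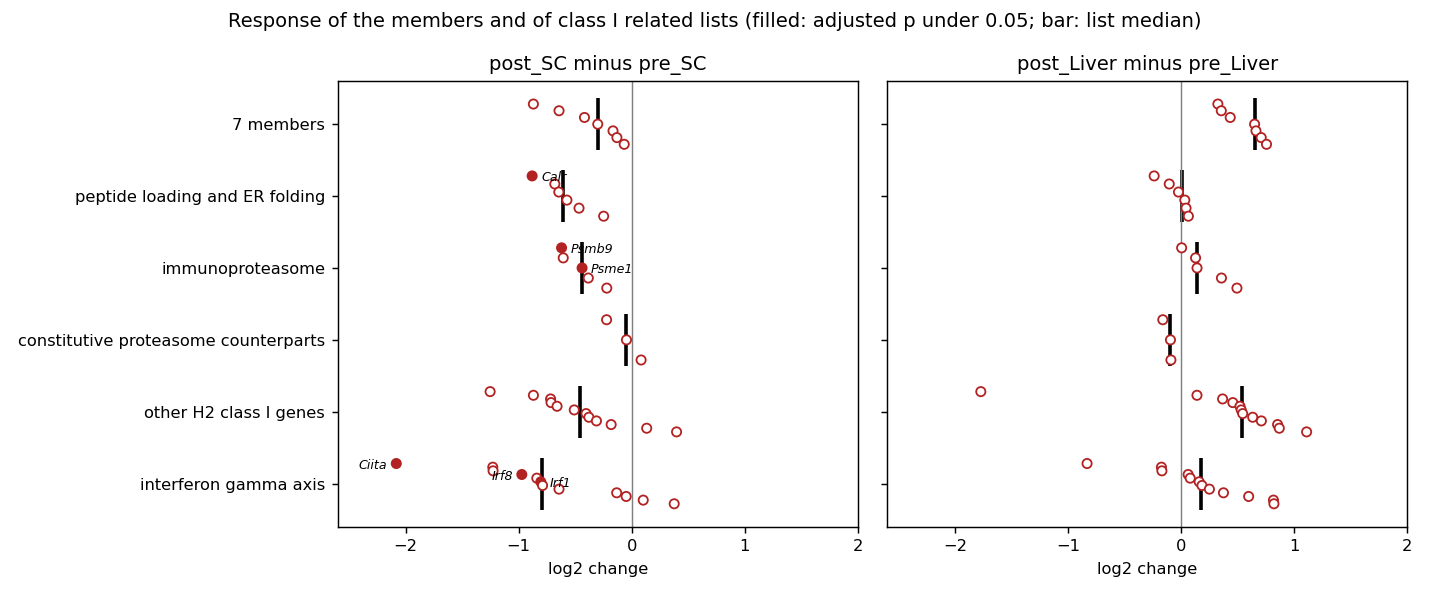
Log2 change after paclitaxel of the 7 members and of the genes of 5 related lists in subcutaneous (left) and liver tumors (right); filled points passed a limma adjusted p of 0.05 and bars mark list medians. On the left the filled points are Calr, Psmb9, Psme1, Irf8, Irf1 and Ciita, all below 0, and on the right none is filled.

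In liver tumors, none of the 7 members was called after paclitaxel by limma or in any alternative, and treated and untreated tumors overlapped for each. All 7 differences were above 0, as were those of most genes, since the median of all genes was 0.37. Of 13008 genes 3.64% were called and 6.63% did not overlap. H2-D1 was the only member with an unadjusted p under 0.05, where 31.7% of all genes had one. It was at 1236, 1189.7, 892, 558 and 535 FPKM (a length-normalised level, as deposited) in pre_Liver and at 1374, 1412, 1333, 1051 and 1682 in post_Liver (log2 difference 0.71 ± 0.31, SE; limma adjusted p = 0.152). H2-K1 was at 1570.2, 1561, 1137, 660.1 and 643 FPKM in pre_Liver and at 1635, 1770.3, 1672, 1118 and 2082 in post_Liver (0.65 ± 0.35; limma adjusted p = 0.203). In both genes 4 of the 5 treated tumors were above every untreated one, and post_Liver replicate 4 was the exception.

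B2m was at 2855, 2856, 2581, 2035 and 1895 FPKM in pre_Liver and at 3149, 3412, 3439.9, 2449.9 and 4041 in post_Liver, again with replicate 4 alone inside the untreated range (0.43 ± 0.29). Nlrc5 and Tap1 spread more widely. Nlrc5 was at 28.1, 29.7, 19.1, 5.00 and 5.53 FPKM in pre_Liver and at 17.1, 38.3, 37.8, 9.39 and 23.3 in post_Liver (0.66 ± 0.56, with a 95% interval of −0.58 to 1.90). Tap1 was at 123, 113, 79.5, 19.7 and 26.8 FPKM in pre_Liver and at 87.3, 146, 125, 45.3 and 118 in post_Liver (0.76 ± 0.55). Tap2 and Tapbp differed by 0.36 ± 0.33 and 0.33 ± 0.35. The limma adjusted p of B2m, Nlrc5, Tap1, Tap2 and Tapbp was 0.283, 0.372, 0.308, 0.404 and 0.468. Direction depended on the scale and on 2 libraries. After scaling by the median of ratios, which moved the median of all genes to 0.03, Tap2 and Tapbp stood at −0.04 and −0.07. Without pre_Liver replicates 4 and 5, an alternative added after the data were seen, Nlrc5, Tap1, Tap2 and Tapbp stood at −0.16, −0.09, −0.14 and −0.17, and H2-D1, B2m and H2-K1 at 0.31, 0.24 and 0.21.

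Among the 10 liver tumors all 7 members were lowest in the 2 libraries with the highest hepatocyte sums. Pre_Liver replicates 4 and 5 had sums of 130364 and 135222 TPM, with Nlrc5 at 9.92 and 10.5 TPM. Pre_Liver replicate 3 and post_Liver replicate 4 came next (86174 and 77647), with Nlrc5 at 35.7 and 17.9 TPM. Post_Liver replicates 2 and 3 had the lowest sums (3671 and 3061) and the highest Nlrc5 of the liver tumors (70.6 and 69.7). B2m, H2-K1, H2-D1, Tap2 and Tapbp were instead highest in post_Liver replicate 5 (7941, 4092, 3305, 137 and 492 TPM), whose hepatocyte sum was 30487. The order did not hold throughout, as post_Liver replicate 1 and pre_Liver replicate 2 had similar sums (30230.2 and 32305) with Nlrc5 at 33.6 and 56.9 TPM. Leukocyte markers summed to 412 to 1235 TPM in pre_Liver and 1006 to 1677 in post_Liver, and neutrophil markers to 115 to 934 and 1974 to 15193. Their part in the members' values was not tested. After values were rescaled without hepatocyte genes, the liver responses of Nlrc5, H2-K1, H2-D1 and B2m stood at 0.42, 0.38, 0.44 and 0.16.

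**Figure D4:**
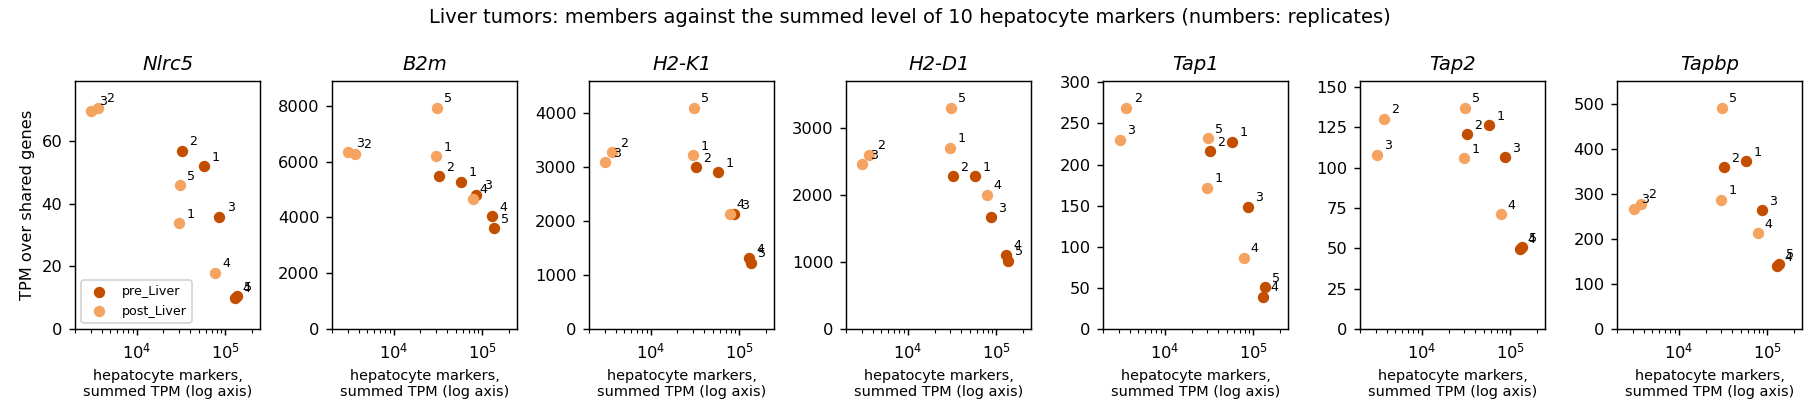
Level of each gene (TPM over shared genes, axes from 0) in the 10 liver tumors against the summed TPM of 10 hepatocyte markers (log axis), with replicate numbers beside the points. In each panel pre_Liver replicates 4 and 5, at the right end (130364 and 135222), are the 2 lowest points.

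In liver tumors, counts of the related lists are read beside all genes. Of these, 3.64% were called and 31.7% had an unadjusted p under 0.05. None of the 12 interferon gamma axis genes was called by limma, and 2 had an unadjusted p under 0.05, the receptor chains Ifngr1 (0.82 ± 0.23) and Ifngr2 (0.82 ± 0.26), with limma adjusted p of 0.0680 and 0.0879. Irf1, named here after its values were seen, stood at 0.25 ± 0.45 and was below 0 after scaling by the median of ratios. None of 6 loading and folding, 5 immunoproteasome or 3 constitutive proteasome genes was called by limma, and none had an unadjusted p under 0.05. Of 12 other H2 class I genes none was called and 3 had an unadjusted p under 0.05. Only 1 of the 12, H2-Q10, was below 0, and the list median was 0.54 beside 0.37 for all genes. Of the 3, H2-T24 and H2-Q6 stood above 0, at 1.11 ± 0.43 and 0.87 ± 0.35. The first by p was H2-Q10 at −1.77 ± 0.58 (limma adjusted p = 0.0909), a liver transcript. It lay between 194 and 492 FPKM in pre_Liver and between 40.4 and 383 in post_Liver. Cd1d1 fell from 56.1 ± 25.98 to 13.6 ± 8.70 FPKM (SD, n = 5 each; −2.03 ± 0.48, limma adjusted p = 0.0482), a call that ended in 15 of 19 alternatives, including those without any 1 of pre_Liver 1, 3, 4 and 5 and post_Liver 1, 2, 3 and 5 (0.0753 to 0.141), within a range of 0.0121 to 0.313. Pirb, an inhibitory receptor of myeloid cells that binds class I, rose from 14.8 ± 6.30 to 31.8 ± 5.07 FPKM (1.13 ± 0.26; limma adjusted p = 0.0431). Its call ended in 12 of 19, including those without any 1 of pre_Liver 3, 4 and 5 and post_Liver 1, 2, 3 and 5 (0.0782 to 0.133), within 0.0124 to 0.242. None of 8 enhanceosome genes was called, and 4 had an unadjusted p under 0.05, with Nfya at 0.96 ± 0.25 (limma adjusted p = 0.0561).

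The liver response minus the subcutaneous response was above 0 for all 7 members and passed the test for none. Of 13698 genes 3.03% were called and 25.2% had an unadjusted p under 0.05, and the median of all genes was 0.39. The members' median was 0.82. Tap2 differed by 1.23 ± 0.48 (SE; limma adjusted p = 0.141) and was the only member with an unadjusted p under 0.05. Nlrc5 differed by 1.33 ± 0.79 (95% interval −0.36 to 3.03; limma adjusted p = 0.284) and Tap1 by 1.18 ± 0.74 (limma adjusted p = 0.308). H2-K1, H2-D1, Tapbp and B2m stood at 0.82 ± 0.44, 0.78 ± 0.40, 0.63 ± 0.47 and 0.57 ± 0.33. Among the listed genes Nfya, the DNA-binding subunit of NF-Y, was called at 1.85 ± 0.46 (limma adjusted p = 0.0452), a call that ended in 14 of 24 alternatives, including those without any 1 library other than pre_Liver 1, pre_Liver 2, post_SC 2 and post_Liver 4 (0.0681 to 0.110), within a range of 0.0124 to 0.123. Ciita stood at 1.91 ± 0.58 (limma adjusted p = 0.0787). This comparison and the site comparison use the same untreated libraries as the responses, so their values are not independent of each other.

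Side by side after treatment, B2m was at 5984, 6029.7 and 6585 TPM in post_SC and at 6194, 6289, 6339.8, 4673 and 7941 in post_Liver, over the shared genes. H2-K1 was at 3433, 3804 and 4473 in post_SC and at 3216, 3263, 3081, 2134 and 4092 in post_Liver. Tap2 was at 50.2, 97.0 and 93.2 in post_SC and at 106, 130.4, 108, 71.1 and 137 in post_Liver. The sites overlapped for these 3 genes and for Nlrc5, Tap1 and Tapbp. H2-D1 was at 3324, 3309.7 and 4285 in post_SC and at 2703, 2602.5, 2456, 2006 and 3305 in post_Liver, higher in every subcutaneous tumor, though post_Liver replicate 5 lay just below the lowest of them. Of all genes 13.5% were lower in the treated liver tumors with no overlap, and this difference was not tested.

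The members moved in step across the 16 libraries to different degrees, given as Pearson's r of log2 TPM without a test, since the libraries share 4 groups and the hepatocyte content of the liver tumors. The pair most alike was H2-K1 with H2-D1 (0.986), which share sequence, followed by Nlrc5 with Tap1 (0.976). Tap2 was the member least like the others, at 0.606 with H2-D1, 0.786 with Nlrc5 and 0.814 with Tap1, its partner in the transporter. The ratio of Tap2 to Tap1 was 0.446 to 0.518 in pre_SC, 0.254 to 0.441 in post_SC, 0.553 to 1.27 in pre_Liver and 0.469 to 0.822 in post_Liver. The ratio of H2-D1 to H2-K1 kept within 0.762 and 0.968 over all 16 libraries. Among 13691 genes other than the members, those most like Nlrc5 were Traf1 (0.981), Hap1 (0.975), B9d1 (0.974), Trim21 (0.973) and Mndal (0.973). Those most like the mean of the other 6 members were H2-M3 (0.984), Hk2 (0.981), Capg (0.972), Rasa4 (0.969) and Basp1 (0.969), of which H2-M3 is itself a class I heavy chain gene, presenting formylated peptides.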

How the data were processed

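Poly(A) RNA of 16 tumors was sequenced. Per the submitters' processing notes, StringTie, fastp and GRCm38/mm10 were used, with no version given. The tables name no unit, so units were read from the values. The liver table holds FPKM as deposited, with 2 decimals, and the subcutaneous table holds TPM as deposited. The untreated table, deposited by the authors, holds a score, namely TPM shifted by a per-gene constant that differs between 2 sets of libraries (2376 genes have values below 0). The design had assumed such a constant as possible, and taking it off gave back TPM for 17391 of 17499 genes. For levels across sites, TPM was recomputed over 16858 shared genes. Names turned into dates (24 in each of 2 tables) were left out. No reads could be recovered, so precision from depth is unknown.

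Each comparison was fitted across all genes with limma 3.58.1 (lmFit, eBayes with trend; R 4.3.3) on log2(value + 1), which understates changes of low genes, for genes with a mean of at least 1, with Benjamini-Hochberg adjustment over all genes tested and a threshold of 0.05. The responses were compared by the interaction term of the 4 groups. The test was also run on simulated data with noise drawn independently for each gene. Such data hold no variation that genes share, such as that of hepatocyte content, so they do not check the test against it. Alternatives were another pseudocount (0.1), no filter, other scalings, no trend, a replicate block and leaving out libraries. Python 3.11.15, pandas 2.3.3, NumPy 2.4.6 and matplotlib 3.10.9 were used, with GENCODE M21 and RefSeq for annotation. The members and the gene lists were chosen with earlier results of these data known. Of the interferon gamma axis list, 1 gene is not reported here. All 7 members are named, and up to 4 genes per list and comparison in order of p. For likeness, the 5 genes with the highest r are named.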

Additional observations from a re-analysis of the deposited data

Results flagged for a closer look

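Within groups of 5 liver tumors, 74 gene and group combinations were examined for a single library far from the rest, and 5 were flagged. Chance gives about 1 in 20, so the number of flags is near that rate. The genes share the same libraries, so the flags are not independent. Of the members, Tapbp was at 250.15 FPKM in post_Liver replicate 5, above the other 4 treated liver tumors at 111 to 151. The same library was highest for the interferon gamma receptor chain Ifngr2 (74.63 FPKM), the T cell coreceptor chain Cd8a (25.15 FPKM) and the lectin-like receptor Klrd1 of NK and T cells (12.45 FPKM). It had the highest marker sums of the treated liver tumors for several cell types, namely T and NK cells (303 TPM against 114 to 147.5), macrophages (7174 against 1234 to 3460.4), fibroblasts (6469 against 860.1 to 4102) and dendritic cells (93.0 against 34.8 to 53.7), and the lowest for neutrophils (1974 against 7343 to 15193). Their part in these values was not tested. The transcription factor gene Atf1 was highest in pre_Liver replicate 2, at 20.37 FPKM. Nfya differed between the responses of the 2 sites, by 1.85 (log2) in the interaction term (limma adjusted p = 0.0452). That call ended in 14 of 24 alternatives, and 3.03% of all genes were called in this comparison.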

How the results depend on the processing

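Of 518 values of the members under alternatives, 489 kept their direction and their side of the threshold, 12 lost a call, 11 gained one and 6 changed direction. No member was called in the subcutaneous or liver response under any of them. In the liver response, scaling by the median of ratios gave Tap2 −0.038, Tapbp −0.074, Irf1 −0.14 and Psmb9 −0.041, and rescaling without hepatocyte genes gave Irf1 −0.017. Irf1 and Psmb9 spanned −0.061 to 0.49 and −0.0076 to 0.59 with 1 library left out, and were below 0 without pre_Liver replicate 4. Without pre_Liver replicates 4 and 5, Nlrc5, Tap1, Tap2, Tapbp, Irf1 and Psmb9 stood at −0.16, −0.093, −0.14, −0.17, −0.46 and −0.45. The cause of these changes was not tested. Members called at the site comparison numbered 2, and 1 with no filter or rescaled without hepatocyte genes. They numbered 6 on the table as deposited, with its values below 0 set to 0, and 0 to 5 when 1 library was left out. Beside these, 3781 to 7851 of all genes were called under the alternatives other than leaving out 1 library. All genes called numbered 928 in the subcutaneous response (78 to 773 with 1 library left out), 474 in the liver response (117 to 3532, lowest without pre_Liver replicate 3 and highest without pre_Liver replicate 2, 221 with the median of ratios, 307 rescaled and 78 without pre_Liver replicates 4 and 5), 6704 between sites (2325 to 9488) and 415 between responses (91 to 2597, and 156 without pre_Liver replicates 4 and 5). With the labels' replicate numbers as a replicate block, the counts were 329, 3456, 3781 and 2129, 1 member was called between sites, and 1, Tap2, between responses (limma adjusted p = 0.0483), while in the subcutaneous response Calr, Irf1, Ciita, Psmb9 and Psme1 were no longer called (0.0527, 0.0527, 0.0606, 0.0863 and 0.0841). Whether the numbers pair the samples is not known. Same-numbered deviations from the group means correlated at −0.158 to 0.129 in subcutaneous and −0.12 to 0.746 in liver tumors. For unlike numbers the values were −0.257 to 0.29 and −0.836 to 0.735, so these ranges cannot tell whether samples are paired. Depth limits could not be given.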
